A study of Rattus norvegicus with 6 samples.

Results

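The 7 genes described here encode proteins of the basement membrane and its fibronectin-rich surroundings. They are the laminin chains Lama1, Lamb1 and Lamc1, the collagen IV chains Col4a1 and Col4a2, the matrix glycoprotein Sparc, and fibronectin, Fn1. They were taken by name: a probe set was included when its symbol in the array's annotation table was exactly one of these. That gave 10 of 31042 probe sets and 7 of 14217 genes, with 2 probe sets each for Lamc1, Col4a1 and Sparc and 1 for each of the others. Total RNA of rat pluripotent cells of the Sprague-Dawley strain was measured on Affymetrix arrays, 1 array per sample, with 3 samples of flat pluripotent stem (fPS) cells and 3 of embryonic stem (ES) cells. The groups were taken from the titles; the free-text description of the fPS samples names embryonic stem cells as well. The growth protocol is the same for both groups and names LIF at 10 ng/ml, the GSK3 inhibitor CHIR99021 at 3 μM, the MEK inhibitor PD0325901 at 0.5 μM, a layer of mouse embryonic fibroblasts stopped with mitomycin C, and a serum medium (15% FBS). The cells were picked from this layer by hand. The labels name no line, clone or age, and separate cultures are not stated for samples of the same group. The p-values therefore reflect variation among these 6 samples alone, and that variation may be technical.

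Basement membranes are thin sheets of matrix beneath epithelia. An α, a β and a γ laminin chain join into a cross-shaped trimer, the trimers form a first network on the cell surface, and collagen IV forms another, made of trimers of mostly α1 and α2 chains, that stabilises the sheet. Lama1, Lamb1 and Lamc1 make laminin-111, the main laminin of the early mouse embryo, which the primitive endoderm and its parietal descendants secrete in large amounts together with collagen IV and Sparc. Fibronectin is a matrix protein bound by integrins and is made by many cells, fibroblasts among them. In bulk RNA, more cells of a type and more transcript per cell cannot be told apart.

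The median intensity lay between 36.2 and 45.3 on the fPS arrays and between 37.6 and 38.7 on the ES arrays, and the mean after trimming 2% at each end between 145 and 177 and between 160 and 199. ES replicate 3 had the highest trimmed mean (198.8) and fPS replicate 3 the lowest (145). The brightest pluripotent cell genes listed were Klf2, Klf5 and the epithelial adhesion gene Epcam. Their mean intensities were 3453, 3056 and 3548 in fPS cells and 3657, 2454 and 3511 in ES cells. They were bright in both groups, so these levels cannot show whether the group labels are right. Of 11 pluripotent cell genes measured, 0 passed and 7 had a lower mean log2 value in fPS cells. All fPS arrays were above all ES arrays in 2 and below in 2, 18.2% each. Over all genes these shares were 11.3% and 11.3%. The 2 below, named after their values were seen, were the pluripotency factor Sox2 and the RNA-binding gene Lin28a, with log2 differences of -0.97 and -1.30 (adjusted p = 0.181 and 0.0933). Sox2 has 4 probe sets, of which only the brightest is given. Differences are fPS minus ES on the scale of log2(intensity + 16), which understates those of dim probe sets. They were tested with limma, and the p-values were adjusted over all 31042 probe sets with a threshold of 0.05.

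The largest differences among the members were those of Col4a1. One Col4a1 probe set was higher in fPS cells by the test, and both Col4a1 probe sets and that of Col4a2 were above all ES arrays on every fPS array. Col4a1 and Col4a2 encode the α1 and α2 chains, and the genes lie head to head. The RefSeq starts in the rat assembly GRCr8 are 76 bases apart on chromosome 16, Col4a2 on the minus and Col4a1 on the plus strand, so the windows around them (250 bases before to 50 after each start) overlap in chr16:84885471-84885646. This stretch is shown because the fPS arrays were above the ES arrays for both genes, although only 1 Col4a1 probe set passed. It is given on the plus strand, with the bases between the starts in capitals.
Col4a2/Col4a1: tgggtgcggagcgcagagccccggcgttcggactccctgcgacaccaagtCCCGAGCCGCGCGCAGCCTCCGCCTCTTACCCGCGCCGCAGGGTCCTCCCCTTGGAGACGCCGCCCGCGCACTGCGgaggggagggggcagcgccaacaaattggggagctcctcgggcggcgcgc
Of its 176 bases 75% are G or C, with 24 CpG dinucleotides. The part between the starts holds 1 match to the GC box GGGCGG on either strand, and 0 to the CCAAT box CCAAT, to TATAAA or to the GATA motif AGATAA. The full window of Col4a1 held 2 GC boxes and 2 CCAAT boxes, and that of Col4a2 held 2 and 1. Of 33469 RefSeq promoter windows of 300 bases, 33.1% held the GC box, 37.5% CCAAT, 14.2% TATAAA and 11.6% AGATAA. These shares are for full windows and cannot be set against the 76 bases between the starts. A match is a description of the letters only.

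The Col4a1 probe set 1372439_at had intensities of 152, 138 and 222 on the fPS arrays, against 31.7, 17.2 and 54.5 on the ES arrays. The groups did not overlap, and fPS replicate 3 and ES replicate 3 were the highest of their groups. The log2 difference was 1.93 (SE 0.311), 3.80-fold, with an adjusted p of 0.0398 in limma. The other Col4a1 probe set, 1373245_at, had 180.5, 259.7 and 461 on the fPS arrays, against 32.7, 55.1 and 124.6 on the ES arrays. Again the groups were apart and the third array of each was the highest. Its log2 difference was nearly equal, 1.91 (SE 0.437), while the wider spread left it short of the threshold (adjusted p = 0.0875). For Col4a2 the intensities were 138, 154 and 115 on the fPS arrays, against 48.5, 29.8 and 90.7 on the ES arrays. Here too the groups were apart, but fPS replicate 3 was the lowest fPS array. The log2 difference was 1.15 (SE 0.313, adjusted p = 0.131), a 2.22-fold difference on the same scale that did not pass.

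Whether Col4a1 and Col4a2 differed to an unequal extent was asked within each array. The log2 value of Col4a1 (its brighter probe set) minus that of Col4a2 was 0.35, 0.69 and 1.87 on the fPS arrays and -0.41, 0.63 and 0.40 on the ES arrays. These groups overlapped, and the difference of 0.76 between their means did not pass a two-sided exact permutation test (p = 0.3, where 3 against 3 arrays allow no less than 0.1). With the mean over both Col4a1 probe sets in place of the brighter one, the difference was 0.77, the groups did not overlap and p was 0.1, the smallest possible.

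In all, 1 of the 10 probe sets passed, and it was higher in fPS cells. Over the whole array 0.693% of probe sets passed in either direction and 0.399% were higher, 124 of 215, which is 57.7%. With each array centred on its median 152 of 376 were higher, 40.4%. When each gene was represented by its brightest probe set, 0 of the 7 genes passed, against 0.858% of all genes. The Col4a1 call was lost whichever array was left out, with log2 differences from 1.66 to 2.20 and adjusted p from 0.0673 to 0.183. It was also lost with a pseudocount of 1 or 64 and with the fibrillar collagen level as a covariate (adjusted p = 0.156, 0.0597 and 0.05002).

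**Figure D1:**
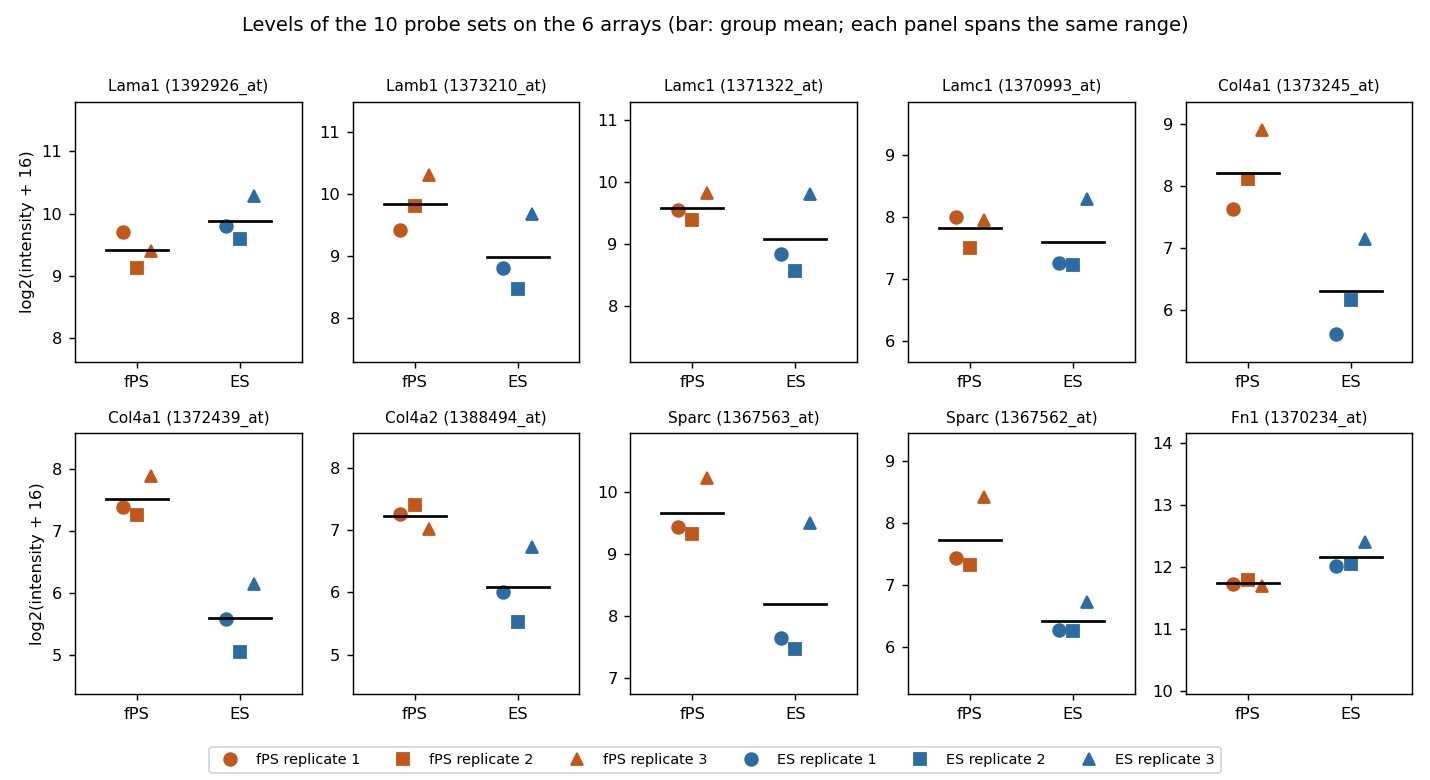
Log2(intensity + 16) of each of the 10 probe sets on the 3 fPS arrays (left, orange) and the 3 ES arrays (right, blue), with a marker shape for each replicate number and a bar at the group mean; every panel spans the same range. Both Col4a1 probe sets, Col4a2 and Sparc 1367562_at have all fPS arrays above all ES arrays, Fn1 has them below, and the other 5 overlap.

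Sparc, which binds collagen IV and is secreted strongly by parietal endoderm in the mouse, had higher means in fPS cells in both of its probe sets, and neither passed. Sparc 1367562_at had 158, 144 and 327 on the fPS arrays, against 61.6, 60.9 and 90.3 on the ES arrays, with no overlap and fPS replicate 3 far above its group. The log2 difference was 1.30 (SE 0.318, adjusted p = 0.0980). The brighter probe set, 1367563_at, had 678, 625 and 1181 on the fPS arrays, against 184, 161 and 706 on the ES arrays. Here ES replicate 3 lay above fPS replicates 1 and 2, so the groups overlapped. Its log2 difference was 1.46 (SE 0.515, adjusted p = 0.220). Among ES arrays this probe set spanned 4.38-fold, against 1.48-fold for the other, so the probe sets of Sparc gave a similar difference between the groups and an unlike spread within ES cells.

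No laminin chain passed the test. The mean of Lamb1 was higher and that of Lama1 lower in fPS cells, and the differences of Lamc1 lay between them. The windows around the starts of Lama1 and Lamb1 are shown because the signs of these genes differed. Both are read 5′ to 3′ on the plus strand of GRCr8, at chr9:115139298-115139597 for Lama1 and chr6:53562846-53563145 for Lamb1, and capitals mark matches to the CCAAT box (CCAAT or ATTGG) or the GC box (GGGCGG or CCGCCC), which overlap nowhere here.
Lama1: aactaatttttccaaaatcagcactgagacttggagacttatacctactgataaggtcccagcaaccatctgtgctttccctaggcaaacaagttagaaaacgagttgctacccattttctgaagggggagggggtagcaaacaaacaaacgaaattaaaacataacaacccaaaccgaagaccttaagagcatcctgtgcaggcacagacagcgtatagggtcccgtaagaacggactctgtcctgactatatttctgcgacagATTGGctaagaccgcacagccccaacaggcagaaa
Lamb1: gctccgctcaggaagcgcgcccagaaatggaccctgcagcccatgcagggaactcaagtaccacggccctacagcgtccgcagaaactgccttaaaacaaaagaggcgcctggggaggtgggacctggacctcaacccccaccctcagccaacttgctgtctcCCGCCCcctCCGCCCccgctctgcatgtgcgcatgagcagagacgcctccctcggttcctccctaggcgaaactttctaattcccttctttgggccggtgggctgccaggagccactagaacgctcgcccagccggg
The Lama1 window is 45.7% G or C with 8 CpG dinucleotides, 0 GC boxes and 1 CCAAT box, and the Lamb1 window is 63.7% G or C with 18 CpG dinucleotides, 2 GC boxes and 0 CCAAT boxes. Of all windows, 27.6% had a lower share of G and C than Lama1 and 81.5% a lower one than Lamb1. The windows of Lamc1 (71.7%), Col4a1 (75%), Col4a2 (73.7%) and Sparc (61%) were richer in G and C than that of Lama1, and the median of all windows was 51.7%. None of the 6 windows held TATAAA or AGATAA. RefSeq windows were at hand for 6 of the 7 genes, all but Fn1, whose mean was also lower in fPS cells. Whether the composition of a window goes with the direction of its gene was not tested.

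Lama1, the α1 chain, had intensities of 819, 542 and 657 on the fPS arrays, against 873, 754 and 1225 on the ES arrays. Only fPS replicate 1 and ES replicate 2 overlapped, and the log2 difference of -0.48 (SE 0.259) did not pass (adjusted p = 0.435). Lamb1, the β1 chain, had 666, 873 and 1249 on the fPS arrays, against 429.6, 336 and 797 on the ES arrays. The groups overlapped in fPS replicate 1 and ES replicate 3, and the log2 difference of 0.86 (SE 0.353) did not pass (adjusted p = 0.289). Lamc1, the γ1 chain shared by most laminins, had 737, 657 and 891 on the fPS arrays, against 446, 363 and 885 on the ES arrays with its brighter probe set 1371322_at. ES replicate 3 lay among the fPS arrays, and the log2 difference was 0.51 (SE 0.328, adjusted p = 0.515). The dimmer Lamc1 probe set, 1370993_at, had 240.1, 166 and 234 on the fPS arrays, against 138, 135 and 297 on the ES arrays. There ES replicate 3 was above all fPS arrays, and the log2 difference was 0.23 (SE 0.318, adjusted p = 0.807).

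Within each array, the log2 value of Lamb1 minus that of Lama1 was -0.29, 0.67 and 0.91 on the fPS arrays and -0.996, -1.13 and -0.61 on the ES arrays. All fPS arrays were above all ES arrays, and the means, 0.43 ± 0.637 in fPS and -0.91 ± 0.269 in ES cells (SD, n = 3 each), differed by 1.34. The two-sided exact permutation test gave p = 0.1, the smallest that 3 against 3 arrays allow. The pair was chosen with the opposite signs known, so the test is a description of the separation. A change of scale between arrays cancels in this difference except through the pseudocount, and without single arrays it ran from 1.10 to 1.70.

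Fn1 was lower in fPS cells on every array and varied least of all the members, but did not pass. Its intensities were 3375, 3514 and 3299.7 on the fPS arrays, against 4129, 4217 and 5406 on the ES arrays. The groups did not overlap, with the fPS arrays within 1.06-fold of each other. The log2 difference was -0.42 (SE 0.205, adjusted p = 0.379), 0.747-fold. Since the trimmed mean was highest on ES replicate 3 and lowest on fPS replicate 3, the lower means of Fn1 and Lama1 were examined under other scalings. After quantile normalization, median centring or scaling to 1 trimmed mean, the Fn1 difference was -0.26, -0.48 and -0.31 and the Lama1 difference -0.35, -0.54 and -0.37. Under each of these 3 scalings all fPS arrays were below all ES arrays for both genes. The share of all probe sets that were below in this way under these scalings is not given here.

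Counted over the 10 probe sets, 4 had all fPS arrays above all ES arrays and 1 had them below. Over the whole array this was so for 10.1% and 9.88% of probe sets. After quantile normalization 5 were above, the brighter Sparc probe set added, and 2 below, Lama1 added. The shares of 10.1% and 9.88% are for the values before this normalization and cannot be set against these counts. An unadjusted limma p under 0.05 with a higher mean in fPS cells was found for 6 of the 10, from Col4a1, Col4a2, Sparc and Lamb1, and for 7.56% of all probe sets. The median log2 difference was 1.01 over the 10 and 0.014 over all probe sets. The 10 are not independent, since 6 of them are pairs of probe sets of 1 gene. The members were also chosen with earlier results of these data known. These shares are therefore a description and do not test whether the members differ from other genes.

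**Figure D2:**
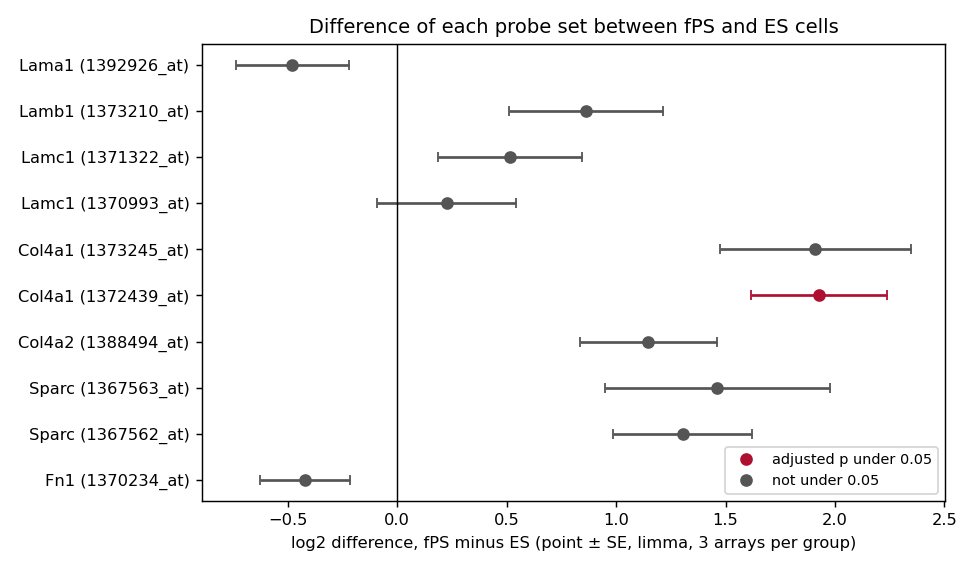
Log2 difference of each of the 10 probe sets, fPS minus ES, as a point with its standard error from limma, in red where the adjusted p was under 0.05. Col4a1 1372439_at is red at 1.93, the other Col4a1 probe set sits at 1.91 with a longer bar, and Lama1 and Fn1 lie left of 0.

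The spread within groups was large for most members. The pooled SD (the root of the mean of both groups' variances) of log2 values had a median of 0.466 over the 10 probe sets, against 0.327 over all probe sets. The pooled SD was 0.867 for Sparc 1367563_at, higher than in 99.5% of all probe sets, and 0.714 for Col4a1 1373245_at, higher than in 97.6%. At the other end were Lama1 with 0.324 and Fn1 with 0.156, and the SD of Fn1 was higher than in 10.4% of probe sets. ES replicate 3 was the highest ES array for 10 of 10 probe sets, against 42.7% of all probe sets. It exceeded the mean of the other ES arrays by 0.37 to 1.94, with a median of 1.004 against 0.047 over all probe sets. ES replicate 3 was also the highest ES array for 8 of 11 pluripotent cell genes, and its trimmed mean was the highest of all arrays (198.8). In fPS cells replicate 3 was the highest for 6 of 10, among them Lamb1 and both probe sets of Col4a1 and of Sparc, against 23.1% of all probe sets.

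The same arrays were high in fibroblast markers, the cell type of the feeder layer. The mean log2 value of 5 fibrillar collagen genes (Col1a1, Col1a2, Col3a1, Col5a1 and Col5a2) was 6.86, 6.74 and 8.13 on the fPS arrays and 5.595, 6.48 and 8.65 on the ES arrays. Of 21 fibroblast genes, all measured, ES replicate 3 was the highest ES array for 17 and fPS replicate 3 the highest fPS array for 13. Over all genes this was so for 45.7% and 22.0%. Their summed intensity was 1091, 878 and 2271.5 on the fPS arrays and 599, 799 and 3045 on the ES arrays, so the groups overlapped. Col1a2, for example, had 126, 112 and 541 on the fPS arrays, against 4.03, 53.1 and 712 on the ES arrays. None of the 21 was at 0, 13 were under an intensity of 100 on all 6 arrays, 0 passed, and the median log2 difference was 0.20. The feeder cells are of mouse, and how much of their RNA these rat probe sets detect was not tested. The part of feeder RNA in the spread of the members was not tested either.

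Without ES replicate 3 and fPS replicate 3, the log2 differences were 2.01 for Col4a1 1372439_at and 1.98 for Col4a1 1373245_at. They were 1.58 for Col4a2, and 1.11 and 1.83 for Sparc 1367562_at and 1367563_at. Those of Lamb1, of the brighter Lamc1 probe set and of the dimmer one were 0.97, 0.77 and 0.50, and those of Lama1 and Fn1 were -0.28 and -0.28. With 2 arrays per group, 0 of the 10 probe sets passed (lowest adjusted p = 0.177), as did 0 of all probe sets. An unadjusted limma p under 0.05 was found in this fit for 7 of the 10 and for 4618 of all 31042 probe sets. With the level of the 5 fibrillar collagens as a covariate and all arrays, the differences were 1.83 and 1.73 for Col4a1 1372439_at and 1373245_at, 1.08 for Col4a2, 1.21 and 1.24 for Sparc 1367562_at and 1367563_at, 0.74 for Lamb1, 0.40 and 0.12 for the brighter and the dimmer Lamc1 probe set, -0.53 for Lama1 and -0.45 for Fn1, and 0 passed.

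**Figure D3:**
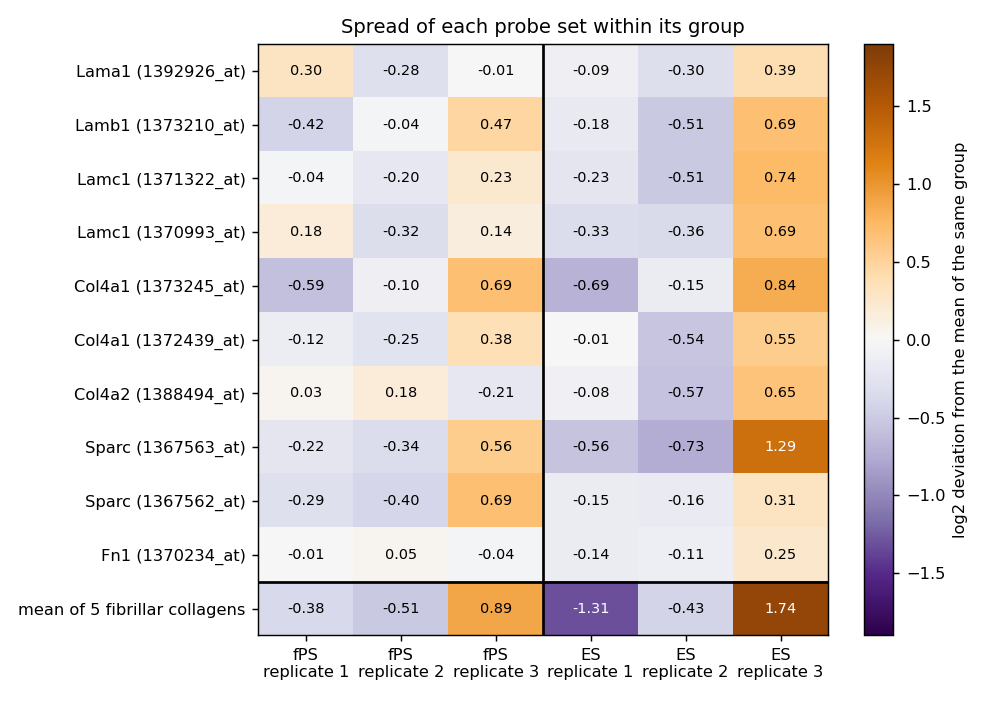
Deviation of each array from the mean of its own group, in log2 units, for the 10 probe sets (rows above the line) and the mean of 5 fibrillar collagens (row below), with fPS arrays on the left and ES arrays on the right. ES replicate 3 is above its group mean in every row, from 0.25 for Fn1 to 1.29 for Sparc 1367563_at and 1.74 for the fibrillar collagens.

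Markers of primitive and parietal endoderm, the embryonic tissues that secrete laminin-111 and collagen IV, were mostly dim. Of 22 such genes 20 were measured, of which 16 stayed under an intensity of 100 on all 6 arrays, 0 passed and none was at 0. In 7 all fPS arrays were above all ES arrays and in 0 below, that is in 35% and 0%, where 11.3% of all genes were above and 11.3% below. The median log2 difference was 0.44. This list too was chosen with earlier results of these data known. Their summed intensity was 2616, 2265 and 2724 on the fPS arrays and 1992, 1846 and 1992 on the ES arrays, so it was higher on every fPS array. The brightest genes, Tfpi, Srgn and Sox17, weigh most in this sum, so it does not describe the list as a whole. Sox17, a transcription factor of endoderm, had 269.5, 214 and 192 on the fPS arrays, against 52.0, 63.8 and 109.6 on the ES arrays. Its log2 difference of 1.44 (SE 0.274) missed the threshold (adjusted p = 0.0552), and its 2 dimmer probe sets gave 0.47 and -0.61, so its direction was not the same in all 3. Srgn, a proteoglycan core protein, had a log2 difference of 1.28 (adjusted p = 0.0765), and Tfpi, an inhibitor of blood clotting, had 1189.5 ± 141 in fPS and 1279 ± 63.5 in ES cells (SD, n = 3 each). The endoderm regulators Gata4 and Gata6, picked after their values were seen, had 56.0, 50.9 and 67.7 and 74.9, 93.4 and 59.2 on the fPS arrays, against 17.3, 20.1 and 21.8 and 65.8, 61.7 and 39.5 on the ES arrays, with log2 differences of 1.05 and 0.36 (adjusted p = 0.0560 and 0.546). Gata4 and Gata6 have 2 probe sets each, of which only the brighter is given. The part of endoderm cells in the levels of the members was not tested.

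Of 83 further basement membrane genes in 5 lists, 73 were measured and 0 passed, against 0.858% of all genes; 23 of the 73 had an unadjusted limma p under 0.05, 20 of them with a higher and 3 with a lower mean in fPS cells. Over all genes 8.59% had such a p with a higher mean and 8.88% with a lower one. All fPS arrays were above all ES arrays in 21 of the 73 (28.8%) and below in 4 (5.48%), where 11.3% of all genes were above and 11.3% below; the counts without overlap for each list are to be read against the same shares. The median log2 difference of the 73 was 0.16, and that of all genes was -0.000046. The lists were chosen with earlier results of these data known, so these shares are a description only. Of the 10 other laminin and collagen IV chains, 1 was above and 2 below without overlap. Lama5, the α chain of many adult epithelia, had a log2 difference of 0.48 (adjusted p = 0.477). Lamb2, a β chain of nerve and kidney basement membranes, had -0.16 (adjusted p = 0.870) and Lamc3 -0.54 (adjusted p = 0.321), with Lamc3 lower on every fPS array.

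Among 17 other matrix components, 5 were above and 0 below without overlap. Nid1, nidogen, which links laminin to collagen IV, had 3033, 3521 and 3717 on the fPS arrays, against 2816, 3203 and 4408 on the ES arrays. Its log2 difference was -0.00069 (SE 0.235, adjusted p = 0.999), and ES replicate 3 was again the highest ES array. Agrn, a heparan sulfate proteoglycan, had -0.39 (adjusted p = 0.596), and Fbln1, fibulin, had 0.67 (adjusted p = 0.180). Among 19 genes of collagen folding, modification and export, 6 were above and 1 below. The brightest were P4hb, a subunit of the prolyl hydroxylase, the isomerase Ppib and the export receptor Mia3, with log2 differences of 0.11, -0.10 and 0.0037. The collagen chaperone Serpinh1 and the prolyl hydroxylase subunit P4ha2, picked after their values were seen, had 1.53 and 1.29 (adjusted p = 0.110 and 0.0769). Each has 2 probe sets, of which only the brighter is given. Serpinh1 had 176, 157 and 285 on the fPS arrays, against 42.6, 36.1 and 121.6 on the ES arrays, with the third array highest in both groups as for Col4a1.

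Of 15 receptors, 6 were above and 1 below without overlap. The laminin receptor integrins Itga6 and Itgb1 had log2 differences of -0.24 and 0.011, and dystroglycan, Dag1, another laminin receptor, -0.52 (adjusted p = 0.357) with all fPS arrays below all ES arrays. Itga6, Itgb1 and Dag1 have 4, 2 and 4 probe sets, of which only the brightest is given. Sdc4, a syndecan that binds fibronectin, had 489, 668 and 678 on the fPS arrays, against 392, 218 and 299 on the ES arrays, a log2 difference of 0.998 (adjusted p = 0.121). Of 12 proteases and inhibitors, 3 were above and 0 below. The membrane protease Mmp14 and the inhibitors Timp1 and Timp3 had log2 differences of -0.50, 0.55 and -0.71 that did not pass. Mmp14 and Timp3 have 2 and 4 probe sets, of which only the brightest is given. The counts for single lists are descriptions and do not show that a list differs from other genes.

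**Figure D4:**
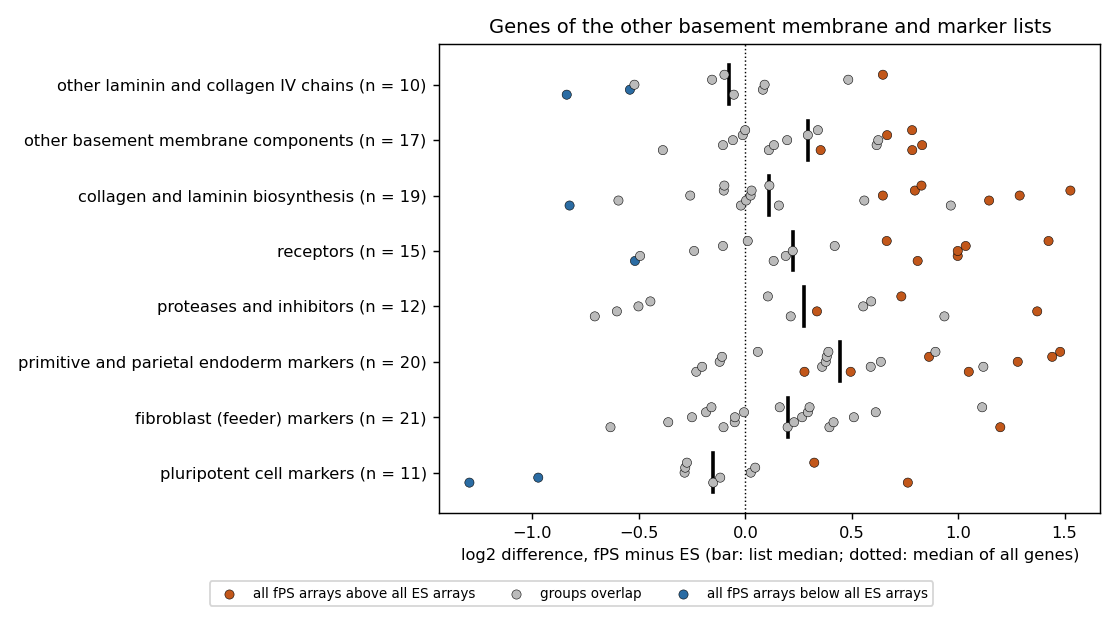
Log2 difference, fPS minus ES, of each measured gene (points) in 5 lists of basement membrane genes and 3 lists of cell markers, coloured by whether the groups overlap, with a bar at the list median and a dotted line at the median of all genes. The bars run from -0.15 for pluripotent cell markers to 0.44 for primitive and parietal endoderm markers, and 0 of the genes shown passed the test.

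The genes with the pattern over the 6 arrays most like each member were taken from 7080 genes (7081 for Col4a2) brighter than the median gene, by Pearson's r of log2 values. For Col4a1 they were Plpp3 (r = 0.999) and Ermp1 (r = 0.998), and for Col4a2 Cited2 (r = 0.992) and Tox4 (r = 0.990). For Sparc they were Prkar1a (r = 0.995) and Vars1 (r = 0.987), for Lama1 Nectin3 (r = 0.993) and Rhbdd2 (r = 0.987), and for Lamb1 Stat2 (r = 0.996) and Rab11fip1 (r = 0.989). For Lamc1 they were Wdfy1 (r = 0.991) and Pi4ka (r = 0.986), and for Fn1 Ywhaq (r = 0.993) and Thoc2 (r = 0.992). No member was among them. With 6 arrays, which share the difference between groups and the level of each array, and this many genes searched, these values describe the search and nothing more.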

How the data were processed

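Biotin-labelled cRNA from 6 μg of total RNA was hybridised to Affymetrix arrays, per the labels' protocols. The deposited table holds an intensity on a linear scale for each probe set on each array. How the authors summarised probes, corrected background and scaled arrays is not given in the sources used here, and no detection calls were used. Of 31099 rows, 57 control probe sets were left out. A probe set was named where the platform annotation gave 1 symbol (20826). All 10 member probe sets matched RefSeq by gene ID and symbol.

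R 4.3.3 and limma 3.58.1 were used to fit log2(intensity + 16), fPS minus ES, by lmFit followed by eBayes; p-values were adjusted by Benjamini-Hochberg across 31042 probe sets. The code was tested on simulated data. List genes were represented by their brightest probe set. Named were all members, and from each list the genes past the threshold, filled up to 3 (4 for receptors) with the brightest. The members, lists and pairs were chosen with earlier results of these data known. Promoter windows came from RefSeq (GRCr8). The number of arrays limits the precision. Besides leaving out arrays, alternatives covered scaling, dim probe sets, pseudocounts, eBayes settings, a replicate block, a collagen covariate and averaged probe sets. Trimmed-mean scaling was chosen after seeing the data.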

Additional observations from a re-analysis of the deposited data

How the results depend on the processing

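In 170 refits of single member probe sets no difference changed sign, 153 kept their side of the threshold, 7 passed newly and 10 no longer passed; the last were all refits of Col4a1 1372439_at. The cause was not tested, except that leaving out dim probe sets adjusts over fewer tests and leaving out arrays uses fewer samples. Of the 10 probe sets, 1 passed in the reported fit, 3 and 4 without the dimmest 30% and 50%, 2 with the trend and robust settings, 2 with the replicate block, and 0 with pseudocounts of 1 and 64, with the collagen covariate and without ES replicate 3 and fPS replicate 3; the count was 0 without any single array, a range of 0 to 0. The probe sets that passed newly were Col4a1 1373245_at (adjusted p = 0.0233, 0.0180, 0.0283 and 0.0408 in the first 4 of these fits), Sparc 1367562_at (0.0418 and 0.0300 without dim probe sets) and Col4a2 (0.0471 without the dimmest 50%). Of 31042 probe sets, 215 passed, against 337 after quantile normalization, 376 with centred arrays, 381 with trimmed-mean scaling, 759 of 21729 and 899 of 15521 without the dimmest 30% and 50%, 0 and 41 with pseudocounts of 1 and 64, 619 with the trend and robust settings, 107 with the replicate block, 7 with the collagen covariate, 0 without ES replicate 3 and fPS replicate 3 and 0 to 162 without single arrays. Where 0 passed in limma, 3943 (pseudocount 1), 4618 (without ES replicate 3 and fPS replicate 3), 3215 (without fPS replicate 2) and 3824 (without ES replicate 1) had an unadjusted p under 0.05. Of the 73 pathway genes 0 passed in the reported fit. Without the dimmest 30% and 50% of probe sets, 5 of 55 and 7 of 41 pathway genes passed. With the trend and robust settings 3 passed (Bcam, P4ha2 and Serpinh1), and without single arrays 0 to 1 (Pxdn without fPS replicate 1). With averaged probe sets 2 passed (Bcam and Itgav), as did 300 of all 14217 genes. The Lamb1 minus Lama1 difference of 1.34 ran from 1.10 to 1.70 over 14 alternatives, and the Col4a1 minus Col4a2 difference of 0.76 from 0.31 (without fPS replicate 3) to 1.07 (without fPS replicate 1). Samples with the same replicate number deviated together only weakly (r = 0.151, 0.020 and 0.075 over probe sets), so the number was not taken to pair them; with the block the differences stayed at 1.34 and 0.76 (exact sign-flip p = 0.25 for each, the smallest that 3 pairs allow).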

Other observations

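Timp1, a secreted inhibitor of matrix proteases, was low on the third array of each group. Its intensity was 2080 on fPS replicate 1, 2358 on fPS replicate 2 and 1404 on fPS replicate 3, against 2106, 1722 and 590 on ES replicates 1, 2 and 3. It was thus lowest on the array of each group where the fibrillar collagens were highest. Lamc3 was lowest on the same arrays, with intensities of 66.5, 56.5 and 43.9 in fPS cells and of 91.0, 108.5 and 67.0 in ES cells. Both patterns were picked out after the values were seen. The share of all genes lowest on both of these arrays is not given here. Of all arrays fPS replicate 3 had the lowest trimmed mean (145), and it was the highest fPS array for 22.0% of all genes. Timp2, from the same list as Timp1, went the other way. The brighter of its 2 probe sets had 259, 276 and 558 on the fPS arrays, against 148, 167 and 431 on the ES arrays.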
